A study of Mus musculus with 2 samples.

Results

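The genes described here are the PAX, LIM-homeobox, sine oculis, Iroquois, Distal-less, NK, BarH-like, NeuroD, Neurogenin and Olig transcription factors of the mouse, which pattern the embryo and are best known outside the adult liver. They were chosen by symbol alone, as protein-coding autosomal genes of mm10 named Pax, Lhx, Irx, Dlx, Nkx, Neurod, Neurog, Olig or Barhl with a digit, or bearing the same stem as Six2 and Six3. The rule found 61 genes of 20665 protein-coding autosomal genes. Genes that overlap the same bins of 50 kb cannot be told apart in these data and were counted once, so the 61 genes make 57 loci of 16884, and these cover 74 bins of 54521. Among the pairs that share their bins are Dlx1 with Dlx2, Dlx3 with Dlx4, and Dlx5 with Dlx6. Contacts between pieces of DNA carry no measure of expression, so whether these genes were silent in the livers could not be checked here.

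The data are Foxa2 HiChIP libraries of liver from wildtype mice, 1 library from mice given vehicle (propylene glycol and Tween 80) by oral gavage and 1 from mice given GW4064, an agonist of the bile acid receptor FXR, in the same vehicle. Livers were taken 4 h after the single dose. HiChIP ligates DNA ends that lie close together in the nucleus and then enriches them with an antibody, here an antiserum against Foxa2, a forkhead factor that opens chromatin in liver. Whole liver was used, so a count mixes all its cell types, and the labels do not say how many animals were pooled. With 1 library a group there is no replicate check: every ratio below compares these libraries and not the treatments, the treatment and the library cannot be told apart, and the 95% intervals cover counting error only. There were 22686004 contacts in the vehicle library and 29003442 in the GW4064 one, and the 74 bins held 53409 and 59966 contact ends.

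Homeobox and paired-box proteins bind DNA through a conserved domain and set the identity of regions and cell types, while NeuroD, Neurogenin and Olig proteins are basic helix-loop-helix factors of neurons and glia. Many of these genes lie in gene-poor stretches that hold distant enhancers, often inside the introns of a neighbouring gene. In cells that do not use them, such genes are commonly held by Polycomb complexes on promoters rich in CpG, the dinucleotide that DNA methylation acts on. Some members are exceptions: Six5 is widely expressed, Pax8 serves the thyroid and kidney, and Pax4 and Nkx6-1 serve the pancreatic islet.

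Promoter sequences were matched for 46 of the 61 genes in RefSeq's table for GRCm38.p6, the assembly called mm10, which gave 56 promoters. In the 250 bases before each start, the median GC content was 61.6% for the members and 56% for 20029 promoters of other protein-coding genes. The ratio of observed to expected CpG was 0.666 against 0.546 at the median. A window with at least 50% GC and a CpG ratio of at least 0.6 was found in 34 of the 56 promoters (60.7%) and in 42.7% of the others. The 6 sequences below belong to loci on which results turn: Neurod2 and Six2 for their lower contacts in the GW4064 library, Nkx3-2 and Pax6 for contacts that lie to one side, Nkx2-1 for sparse contact with its linked neighbour Pax9, and Irx3 for frequent contact with Irx5. Each is the 250 bases before the start, 5′ to 3′ on the strand of the gene, and capitals mark CpG.
Neurod2, chr11:98329646-98329895, minus strand: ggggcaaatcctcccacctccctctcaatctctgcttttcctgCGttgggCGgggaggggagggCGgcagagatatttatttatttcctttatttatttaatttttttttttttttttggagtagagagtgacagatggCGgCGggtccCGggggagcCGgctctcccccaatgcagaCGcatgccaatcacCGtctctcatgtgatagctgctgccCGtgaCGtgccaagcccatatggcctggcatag
Six2, chr17:85688255-85688504, minus strand: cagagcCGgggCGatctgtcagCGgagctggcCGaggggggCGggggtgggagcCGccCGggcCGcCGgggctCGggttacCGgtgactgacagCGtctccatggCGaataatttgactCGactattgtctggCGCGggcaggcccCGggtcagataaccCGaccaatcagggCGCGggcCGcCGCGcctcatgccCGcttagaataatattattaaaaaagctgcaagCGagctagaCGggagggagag
Nkx3-2, chr5:41764221-41764470, minus strand: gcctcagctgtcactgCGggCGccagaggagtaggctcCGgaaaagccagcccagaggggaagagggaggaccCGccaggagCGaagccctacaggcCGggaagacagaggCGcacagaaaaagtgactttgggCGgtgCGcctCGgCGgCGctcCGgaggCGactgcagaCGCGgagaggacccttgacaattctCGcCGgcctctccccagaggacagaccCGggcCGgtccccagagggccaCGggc
Pax6, chr2:105668646-105668895, plus strand: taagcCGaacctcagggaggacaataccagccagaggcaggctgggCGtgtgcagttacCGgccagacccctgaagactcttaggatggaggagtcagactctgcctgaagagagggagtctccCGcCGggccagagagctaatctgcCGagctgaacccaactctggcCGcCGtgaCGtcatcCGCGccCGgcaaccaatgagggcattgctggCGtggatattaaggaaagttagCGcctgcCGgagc
Nkx2-1, chr12:56536909-56537158, minus strand: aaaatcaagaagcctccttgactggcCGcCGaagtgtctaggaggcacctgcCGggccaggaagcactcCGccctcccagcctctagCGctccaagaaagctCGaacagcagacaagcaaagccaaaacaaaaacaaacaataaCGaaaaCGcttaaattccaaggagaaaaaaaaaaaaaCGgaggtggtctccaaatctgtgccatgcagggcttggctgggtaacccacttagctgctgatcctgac
Irx3, chr8:91801655-91801904, minus strand: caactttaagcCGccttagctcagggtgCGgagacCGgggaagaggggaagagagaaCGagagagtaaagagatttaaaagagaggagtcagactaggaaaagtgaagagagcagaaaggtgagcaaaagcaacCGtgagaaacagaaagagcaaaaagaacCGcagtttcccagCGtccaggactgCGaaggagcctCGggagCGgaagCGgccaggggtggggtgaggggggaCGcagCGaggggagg
Six2 had 26 CpG in this window and Nkx3-2 had 21, while Nkx2-1 had 9. The forkhead motif TGTTTAC, searched on both strands, was in 0 of the 56 member promoters and in 2.65% of the others. CCCTC, a short piece of the motif of the boundary protein CTCF, was in 80.4% of member promoters and 64.9% of the others, and the TATA box TATAAA in 5.36% and 11.7%. CCCTC is rich in C, and the GC content of the windows differs as given above. A match in a promoter describes its letters, and a lack of one describes only this window.

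Contacts were sorted by distance into those within a bin, local contacts between different bins at most 1 Mb apart, far contacts on the same chromosome, and contacts between chromosomes. In the vehicle library the member bins had 14.2% of their contacts within a bin, 23.1% local, 34.4% far and 28.3% between chromosomes. In the GW4064 library the shares were 15.0%, 26.5%, 35.0% and 23.5%. Other bins with protein-coding genes held 14.4%, 24.3%, 34.6% and 26.7% in vehicle and 15.7%, 27.2%, 34.5% and 22.5% in GW4064. The fall of contacts between chromosomes and the rise of local ones from vehicle to GW4064 was thus shared by both sets of bins.

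Member loci lay among few genes. A median of 10 protein-coding genes overlapped the 21 bins around a member locus, against 15 for other loci, and 16 of the 57 fell in the lowest of 10 classes of gene density, with Irx1 and Irx2 at 1 gene. Gene density matters for what follows, since the ratio between the libraries moved with it. The log2 ratio of local contacts, GW4064 over vehicle and scaled to equal autosomal totals of the class, had a median of 0.05 over other loci in the lowest class and of -0.44 in the highest. Values for the members are therefore given, where that was computed, beside those of other loci weighted to the same classes of density. The latter are called loci of like density below. Values of other loci or pairs not so named were not weighted by density.

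Local contacts of the members were on balance lower in the GW4064 library, by about as much as those of other genes. The median log2 ratio was -0.14 over 57 member loci, -0.15 over 16470 other loci and -0.08 over loci of like density. A locus was called lower where its log2 ratio was below 0 by at least 0.32 with an interval below 0, and higher by the mirrored rule, among loci with at least 100 local contacts, which all 57 member loci had. By that rule 13 of 57 member loci (22.8%) were lower and 0 were higher, where 28.9 percent of all 16527 loci were lower and 1.43 percent higher. The share called lower moved with density. It was 2.37% of other loci in the lowest class, which held 16 members, and 60.9% in the highest, which held 1. A share at like density was not computed, so 22.8% and 28.9 percent do not compare loci of like surroundings. Set against the median of other loci in the same class of density, 34 of 57 members lay below it, 9 with an interval wholly below (15.8%, against 15.3% of other loci) and 2 with one wholly above (3.51%, against 16.9%). When the libraries were scaled to all of their contacts rather than to local contacts, the median of the members became 0.01, that of other loci moved by a like amount to 0.00, and 5 members were lower and 4 higher, where 15.7% and 8.15% of other loci were.

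The lowest member was Neurod2, a factor of cortical neurons on chromosome 11, with 173 local contacts in vehicle and 151 in GW4064 (log2 ratio -0.70, interval -1.03 to -0.38). Six5 had 123 and 108 contacts (-0.69, -1.08 to -0.31), in the most gene-dense surroundings of any member, with 48 genes. Nkx2-5, which the heart depends on, had 196 and 183 contacts (-0.60, -0.90 to -0.31). For Barhl1, a factor of the inner ear and cerebellum, the counts were 148 and 144 (-0.55, -0.89 to -0.20). These raw counts fell or held level while the local contacts of all autosomes together rose with depth from 9245452 to 13128024. Pax7, a marker of muscle stem cells, had 262 and 260 local contacts (-0.52), and Nkx6-2, a factor of oligodendrocytes and neurons, had 123 and 124 (-0.49). All 6 lie in surroundings above the median density of the members.

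Six2, which keeps nephron progenitors in the kidney, was called lower in gene-poor surroundings. It had 169 local contacts in vehicle and 174 in GW4064 (log2 ratio -0.46, interval -0.78 to -0.15), with 5 genes around it, and it was the single member of the lowest density class that was called lower. In that class 2.37% of other loci were lower. Its neighbour Six3, a factor of the forebrain and eye in the adjoining bin, had 140 and 188 contacts (-0.08, -0.40 to 0.25), so the intervals of these neighbours overlapped. Within its own bin Six2 had 92 contacts in vehicle and 79 in GW4064, and Six3 had 79 and 102.

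At the other end, Olig3, a factor of the dorsal hindbrain and spinal cord, had 194 and 320 local contacts (log2 ratio 0.22, interval -0.05 to 0.48). Nkx2-4 had 192 and 315 (0.21), and Lhx8, needed for forebrain cholinergic neurons, had 134 and 220 (0.21). Neurod4 followed with 190 and 304 (0.17), Pax9, which teeth and the thymus need, with 342 and 541 (0.16), and Irx1 with 161 and 253 (0.15). No interval among these 6 excluded 0. Neurod4, with 28 genes around it, had a ratio 0.48 above the median of its density class. Over all classes, 9.48% of other loci lay above their class median by at least 0.32 with an interval above it.

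**Figure D1:**
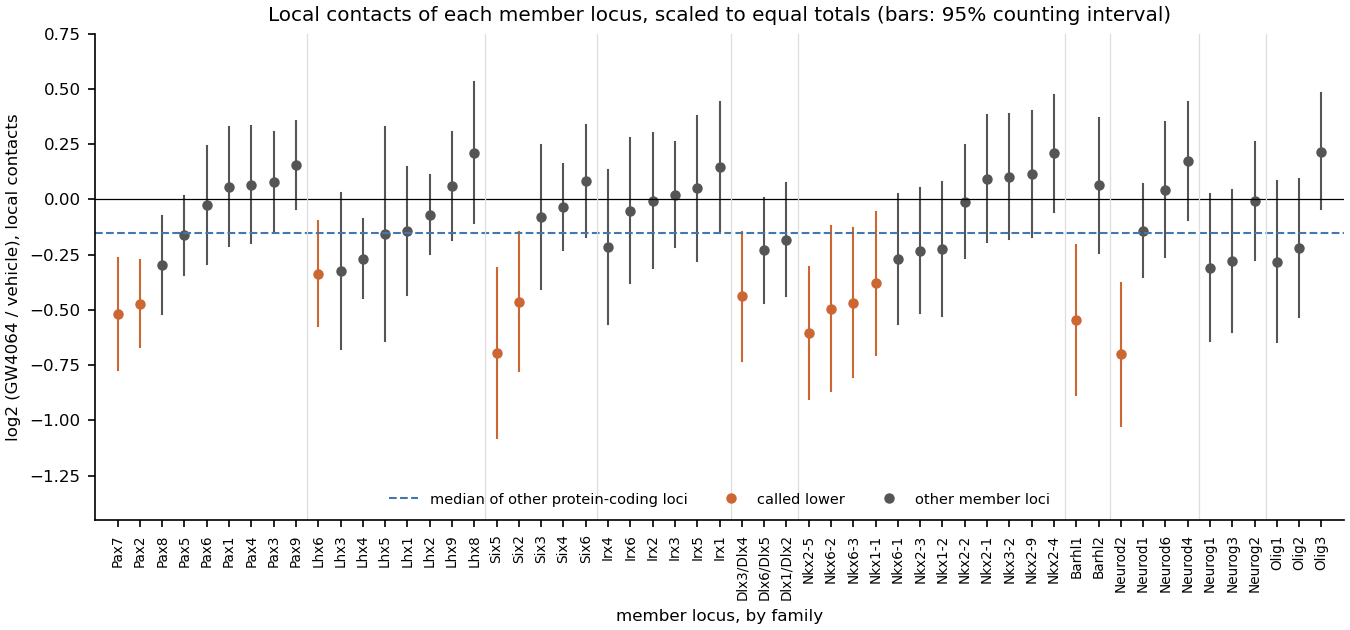
Log2 ratio of local contacts, GW4064 over vehicle, for 55 of the 57 member loci by family (points) with 95% counting intervals (bars). The 12 loci called lower among them are orange, and the dashed line is the median of other protein-coding loci, -0.15.

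By family, the lower calls fell on 5 of 13 Nkx loci, 2 of 9 Pax, 2 of 6 sine oculis, and 1 each of Lhx, Dlx, Barhl and Neurod loci. None of the 6 Irx, 3 Neurog and 3 Olig loci was called. The same rule called 28.9 percent of all loci lower, and 2.37% of other loci in the lowest density class, which holds Irx1 and Irx2. Families hold 2 to 13 loci each, and differences between them were not tested. The Nkx loci called included Nkx2-5, Nkx6-2, Nkx6-3 and Nkx1-1, and none of these belongs to a group of linked members. The medians ran from -0.28 for Neurog to 0.01 for Irx, whose median surroundings held 3.5 genes.

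**Figure D2:**
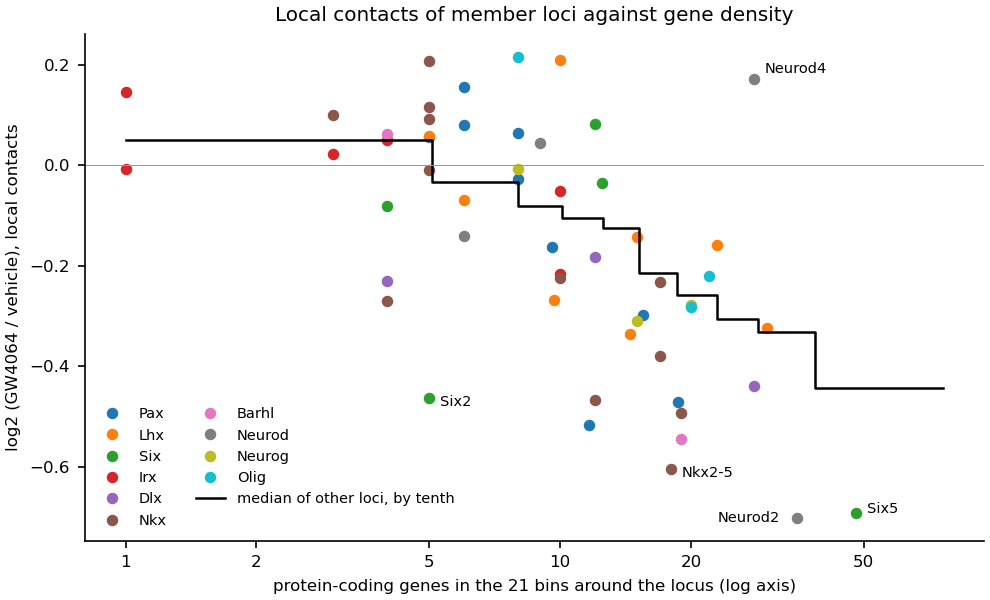
Log2 ratio of local contacts of 55 of the 57 member loci against the number of protein-coding genes in the 21 bins around it (log axis), coloured by family, with the median of other loci in each of 10 classes of density (black steps). Members follow the steps down from left to right, with Six2 far below and Neurod4 far above them.

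Medians of the other kinds of contact were below 0 as well, and below those of loci of like density. Contacts within a bin had a median log2 ratio of -0.22 over members and -0.08 over loci of like density. Far contacts on the same chromosome had -0.17 and -0.11, contacts between chromosomes -0.22 and -0.06, and all contacts -0.21 and -0.10. Summed over the 74 bins, contacts within a bin went from 7577 to 9019, a log2 ratio of -0.21 (interval -0.26 to -0.17), against -0.06 in other bins with genes. Per bin of a locus, the most contacts within a bin were at Neurod4, with 151 in vehicle and 206 in GW4064, Pax1, with 154 and 192, and Irx6, with 147 and 170 (the locus of Dlx1 and Dlx2 had the same sum as Irx6, 151 and 166). The fewest were at Lhx5 with 59 and 77, Nkx6-3 with 66 and 72, and Six5 with 79 and 75.

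Among related genes outside the rule, 82 loci of other patterning factors, such as Otx, Tbx, Sox and Zic genes, had a median local log2 ratio of -0.07, with 11 lower and 1 higher. The 17 loci of Hox genes had -0.27, with 7 lower and 0 higher. Homeobox genes known to be used in liver, such as Hhex, Prox1 and Onecut1, had -0.21 over 22 loci, with 10 lower and 0 higher. The 15 loci of hepatocyte genes such as Alb and Apob had -0.43, with 11 lower and 0 higher. The members' share of lower loci was thus between those of the patterning factors and of the liver homeobox genes. Median density was 10 genes for members, 7 for patterning factors, 8 for liver homeobox, 23 for Hox and 15 for hepatocyte loci. The share with an interval wholly below the median of their density class was 15.8% for members and 12.2% for patterning factors. It was 36.4% for liver homeobox, 23.5% for Hox and 60% for hepatocyte loci. The part of density in the order of these lists was not tested.

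With distance, the member bins were short of near contacts in both libraries and closer to their like at 250 kb to 1 Mb. At 50 kb they held 54.6 contacts per bin in vehicle and 67.0 in GW4064, which is 0.861 and 0.803 times the number in other bins with genes of like density. At 100 to 200 kb the ratios were 0.844 and 0.814, at 250 to 450 kb 0.971 and 0.960, and at 500 kb to 1 Mb 0.975 and 0.953. Beyond that they were 0.888 and 0.836 up to 2 Mb, and 0.905 and 0.876 from there to 10 Mb. In every class the value was lower in GW4064, with the widest gaps within a bin (0.927 and 0.843) and between chromosomes (0.980 and 0.902). Total coverage moves with these ratios: the median member bin had 733 contacts in vehicle and 810.5 in GW4064, where loci of like density had 767 and 908. Its part in the ratios was not tested.

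**Figure D3:**
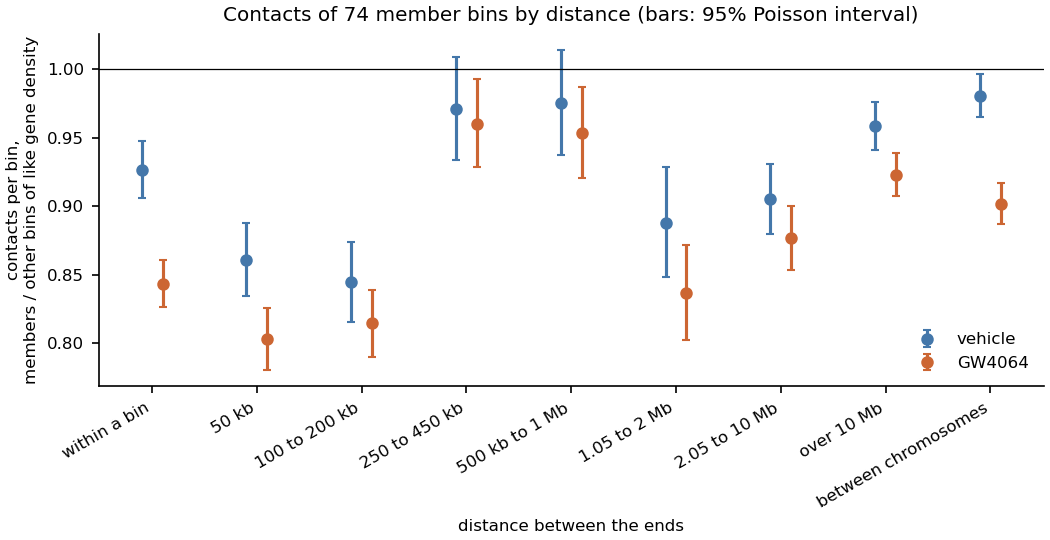
Contacts per bin of the 74 member bins divided by those of other bins with genes of like density, by distance, for vehicle (blue) and GW4064 (orange), with 95% Poisson intervals. Values dip at 50 to 200 kb, return near 1 at 250 kb to 1 Mb, and lie lower in GW4064 in each class.

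In the large-scale order of the chromosomes, members were placed much as other genes of all densities. Of the 57 loci, 41 (71.9%) lay in the gene-rich compartment in both libraries, against 72.7% of other loci. The compartment value, above 0 in the gene-rich one, had a member median of 0.59 in vehicle and 0.66 in GW4064. Loci of like density had 0.43 and 0.54. Its sign was set by gene density, and its lowest correlation with density over 19 chromosomes was 0.27 in vehicle and 0.26 in GW4064. Neurod4 and Nkx2-1 were among those in the gene-poor compartment in both. Contacts that span a locus, summed over a window of 500 kb, had a median log2 observed over expected of -0.20 in vehicle and -0.00 in GW4064 for members, and -0.26 and -0.17 for loci of like density.

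Many members sit beside a relative, and 23 of the 57 loci fell into 9 groups with members at most 2 Mb apart. Among them are Pax8 with Lhx3, Nkx2-4 with Nkx2-2 and Pax1, and, on chromosome 8, Irx3 with Irx5 and Irx6. Chromosome 12 holds Nkx2-1 with Nkx2-9 and Pax9, and a group that includes Six6 and Six4. Further groups are Irx1 with Irx2 and Irx4, Olig2 with Olig1, Six3 with Six2, and Nkx2-3 with Pax2. These groups gave 19 pairs of loci, whose contacts were compared with an expected count built from distance and the coverage of both bins.

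Linked members touched each other less often than expected, with 157 contacts in vehicle against 214 expected (0.732, interval 0.622 to 0.856) and 237 in GW4064 against 278 (0.854, 0.749 to 0.970). Other pairs of protein-coding loci at most 2 Mb apart stood at 1.11 and 1.16. Neither these nor the other pairs of loci set beside linked members below were weighted to like gene density. Both libraries summed, pairs 50 to 100 kb apart had 0.819 times the expected contacts where other pairs had 1.23. For pairs over 100 kb and up to 500 kb apart the values were 0.561 (0.423 to 0.731) and 1.16. The 7 pairs 500 kb to 2 Mb apart had 39 contacts against 27.5 expected (1.42, 1.01 to 1.94), where other pairs had 1.03, and this rested on Irx3 with Irx5 and Irx1 with Irx2: without them, 14 contacts stood against 17.2 (0.815, 0.446 to 1.37). When the coverage of a bin was taken from contacts within it, the value over all 19 pairs was 0.826 in vehicle and 1.08 in GW4064, so the direction in GW4064 rests on that choice.

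The 3 pairs with an interval below the expected contacts in the summed libraries each joined a Pax gene with an Nkx gene. Not every such pair was sparse: Nkx2-3 with Pax2, 1100 kb apart, had 5 contacts against 4.79 (1.04, interval 0.339 to 2.44). Low ratios were not confined to such pairs either: Nkx2-1 with Nkx2-9 had 17 contacts against 26.2 (0.648, 0.378 to 1.04). Nkx2-9 and Pax9, in bins 50 kb apart, had 20 contacts in vehicle and 54 in GW4064, 74 in all against 110 expected (0.674, interval 0.529 to 0.846). Nkx2-1, which makes lung and thyroid, and Pax9 had 8 and 7 contacts, 15 in all against 33.6 (0.447, 0.250 to 0.737). Nkx2-2, a factor of the ventral neural tube and islets, and Pax1, a factor of the vertebral column, had 2 and 6, 8 in all against 15.8 (0.507, 0.219 to 0.999). These 3 of 19 pairs had an interval below the expected contacts in the summed libraries, a property of 7.46 percent of all linked pairs of protein-coding loci. That share covers all distances up to 2 Mb, and it was higher for near pairs. At 50 to 100 kb 1 of 7 member pairs and 12.2% of other pairs had it. From over 100 kb to 500 kb 2 of 5 member pairs and 11.3% of other pairs did. Nkx2-4 and Pax1 also had few contacts, 5 against 11.3, with an interval that held 1 (0.144 to 1.04). Within the same stretch, Nkx2-4 and Nkx2-2 had 34 contacts against 27.8 (1.22, 0.848 to 1.71). Contacts that lie to one side, described below, bear on the same loci.

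Over all distances up to 2 Mb, the share of member pairs with frequent contact lay near the background, though it differed by distance. Both such pairs were Iroquois genes, factors that pattern heart, limb and neural tissue. Irx3 and Irx5, 550 kb apart on chromosome 8, had 5 contacts in vehicle and 7 in GW4064, 12 against 5.52 expected (2.18, interval 1.12 to 3.80). Irx1 and Irx2, 650 kb apart on chromosome 13, had 3 and 10, 13 against 4.85 (2.68, 1.43 to 4.58). Of pairs of protein-coding loci at about the same distance, 10.8% were as high as Irx3 with Irx5 and 5.23% as high as Irx1 with Irx2. At 2 times the expected contacts with an interval above 1, these 2 of 19 pairs (10.5%) were enriched in the summed libraries, where 10.3 percent of all linked pairs were. The 2 sets differ in their mix of distances. Of member pairs 500 kb to 2 Mb apart 2 of 7 were enriched (28.6%), against 8.33% of other pairs. At 50 to 100 kb 0 of 7 were, against 15.9%. From over 100 kb to 500 kb 0 of 5 were, against 15.6%. In vehicle alone 0 of 19 were enriched, where 7.24 percent of all pairs were, and in GW4064 alone Irx1 with Irx2, where 9.75 percent were. The ratio of GW4064 to vehicle for Irx1 with Irx2, 1.39 on the log2 scale, had an interval from -0.57 to 3.89, so the libraries were not set apart. Pairs with the third gene of each cluster had too few contacts to be told from the expected number. Irx3 with Irx6 had 3 contacts against 4.64, and Irx5 with Irx6 had 2 against 6.87. Irx1 with Irx4 had 3 against 1.98, and Irx2 with Irx4 had 3 against 4.04. All 4 intervals held 1. The interval of Irx5 with Irx6 lay wholly below that of Irx3 with Irx5. Those of the other pairs overlapped the interval of the enriched pair in their cluster.

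Among the pairs with at least 20 contacts, the highest were Nkx2-4 with Nkx2-2 (1.22) and Olig2 with Olig1, neighbouring factors of the oligodendrocyte lineage, with 43 contacts against 37.2 (1.16, 0.837 to 1.56). Six6 with Six4, factors of the eye and of muscle, had 25 against 30.5 (0.820), and Six3 with Six2 had 34 against 44.0 (0.773). The intervals of these 4 pairs held 1. Pairs of other loci 50 kb apart had 1.22 times the expected contacts, so Six3 with Six2 stood under its like and the Olig pair near it.

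**Figure D4:**
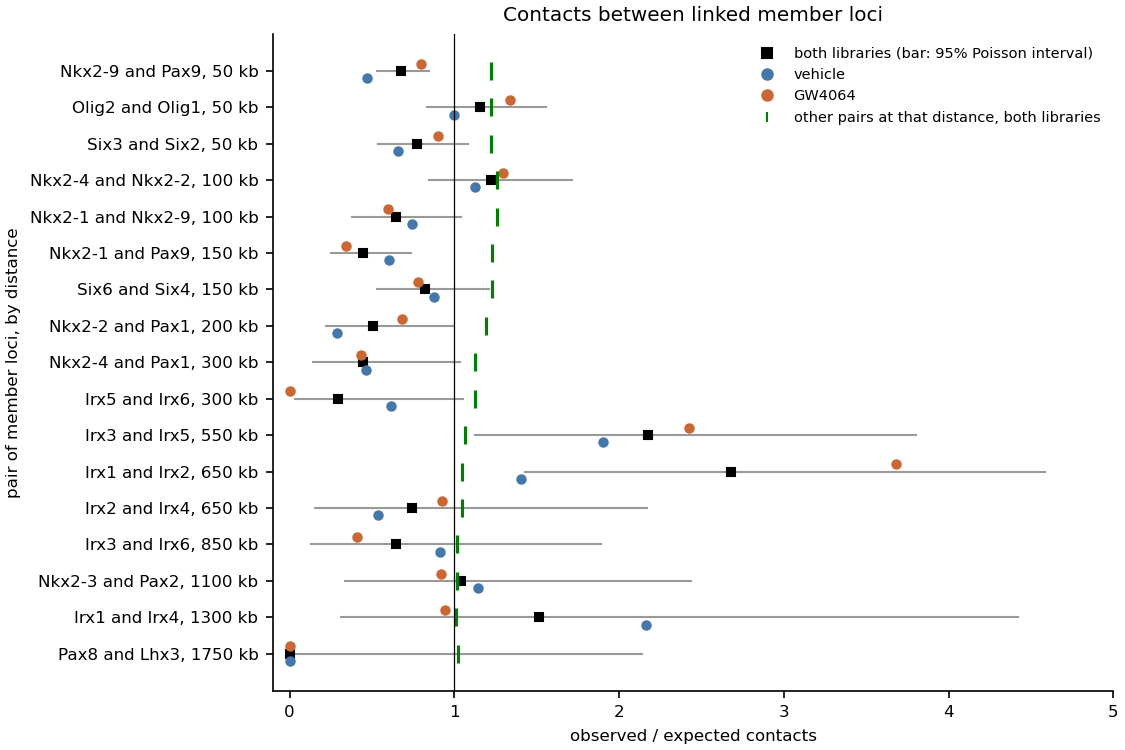
Observed over expected contacts for 17 of the 19 pairs of linked member loci, ordered by distance, in vehicle (blue), GW4064 (orange) and both summed (black, with 95% Poisson interval), beside other pairs at that distance (green). In the summed libraries every pair drawn up to 300 kb apart lies below its green mark. Further apart, Irx3 with Irx5 and Irx1 with Irx2 lie above theirs, as do Irx1 with Irx4 (1.51 against 1.01) and Nkx2-3 with Pax2 (1.04 against 1.01).

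Members far apart met too rarely to describe one by one. For 11 pairs 2 to 10 Mb apart, 8 contacts were seen in both libraries against 8.15 expected (0.982, interval 0.424 to 1.94), and for 84 pairs over 10 Mb apart 25 against 17.4 (1.43, 0.928 to 2.12). Of these 25, 6 joined Pax8 with Lhx6, 11.6 Mb apart, against 1.07 expected (2 in vehicle and 4 in GW4064), a pair singled out after its value was seen. Between chromosomes 1482 pairs of loci had 29 contacts in all against 20.0 expected (1.45, 0.973 to 2.09), and 1.32 (0.882 to 1.89) when the expected number was raised by the ratio for other gene bins of like density. The 16 pairs with a contact in vehicle and the 13 in GW4064 had 1 contact each, and 0 pairs had one in both. With expected counts built on all contacts of a bin rather than its contacts between chromosomes, the value was 1.87 (1.07 to 3.03) in vehicle and 1.84 (0.981 to 3.15) in GW4064, against 1.46 (0.835 to 2.37) and 1.44 (0.768 to 2.47), so whether the interval in vehicle held 1 depended on that choice. A value near 1.45 was not particular to members meeting members. Both libraries summed, member bins stood at 1.74 (1.06 to 2.68) with hepatocyte genes on other chromosomes. They stood at 1.44 (0.720 to 2.58) with Hox genes, 1.30 (0.975 to 1.70) with liver homeobox genes and 1.06 (0.823 to 1.35) with other patterning factors.

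Contacts with the surroundings were not even on the left, toward lower coordinates, and on the right. For contacts at 100 kb to 1 Mb the observed over expected value on the right was divided by that on the left, and a locus was called one-sided where the ratio was at least 2-fold toward the same side in both libraries, with intervals that excluded 1 and at least 20 contacts expected on each side. Of 56 member loci tested, 11 (19.6%) were one-sided, 6 to the left and 5 to the right. Of all 16048 protein-coding loci tested 12.7 percent were one-sided, and of loci of like density 14.1%. For 47 of the 56 members (83.9%) the side was the same in both libraries, as for 85.8% of other loci. The loci named next were chosen after these values were seen.

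Nkx3-2, a factor of the skeleton and spleen, was the most one-sided in vehicle. It had 104 contacts on the left and 24 on the right in vehicle (log2 right over left -2.05, interval -2.75 to -1.40) and 160 and 44 in GW4064 (-1.75). The locus of Dlx5 and Dlx6, factors of the branchial arches and limb, had 165 left and 44 right in vehicle (-1.87) and 192 and 56 in GW4064 (-1.76). Nkx2-2 had 125 and 39 in vehicle (-1.63) and 190 and 61 in GW4064 (-1.58). Lhx2, a factor of the forebrain, Six3 and Irx5 completed the left side, with -1.40, -1.28 and -1.06 in vehicle and -1.55, -1.40 and -1.84 in GW4064.

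On the right, Pax9 had 74 contacts left and 195 right in vehicle (1.39, interval 1.00 to 1.80) and 113 and 283 in GW4064 (1.31). For Pax6, which the eye requires, the counts were 35 and 93 (1.31) and 51 and 149 (1.35). Pax1 had 40 and 92 (1.30) and 57 and 135 (1.32), and Six5 had 26 and 51 (1.04) and 22 and 41 (1.35). With the GW4064 library thinned to the depth of vehicle, 10 of 54 member loci tested were one-sided, and other loci were not counted at that depth.

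In 3 of the 9 linked groups, picked after the values were seen, the members described here leaned apart. How often other neighbouring loci do so was not counted. Contacts between neighbours at 100 kb or more count for both loci, so such values are not independent of the sparse pairs above. Nkx2-2 leaned left and Pax1, 200 kb to its right, leaned right. Six3 leaned left with 72 contacts left and 29 right in vehicle and 104 and 36 in GW4064, while Six2 beside it had 54 and 72 in vehicle (0.47, interval -0.06 to 1.01) and 46 and 78 in GW4064 (0.88, 0.33 to 1.44). Nkx2-1 leaned left (-0.69 in vehicle and -1.35 in GW4064) and Pax9, 150 kb to its right, leaned right. Six2 and Nkx2-1 were under 2-fold in vehicle, so neither met the rule. Leaning apart did not hold for all neighbours: Olig2 leaned right and Olig1, in the next bin, leaned left in vehicle (0.69 and -0.74), with -0.07 and -0.97 in GW4064. Irx1 and Irx2, 650 kb to its right, leaned toward each other in GW4064 (0.80 and -0.54), with -0.15 and -0.29 in vehicle. So did Irx3 and Irx5 in GW4064 (0.48 and -1.84), with -0.05 and -1.06 in vehicle.

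**Figure D5:**
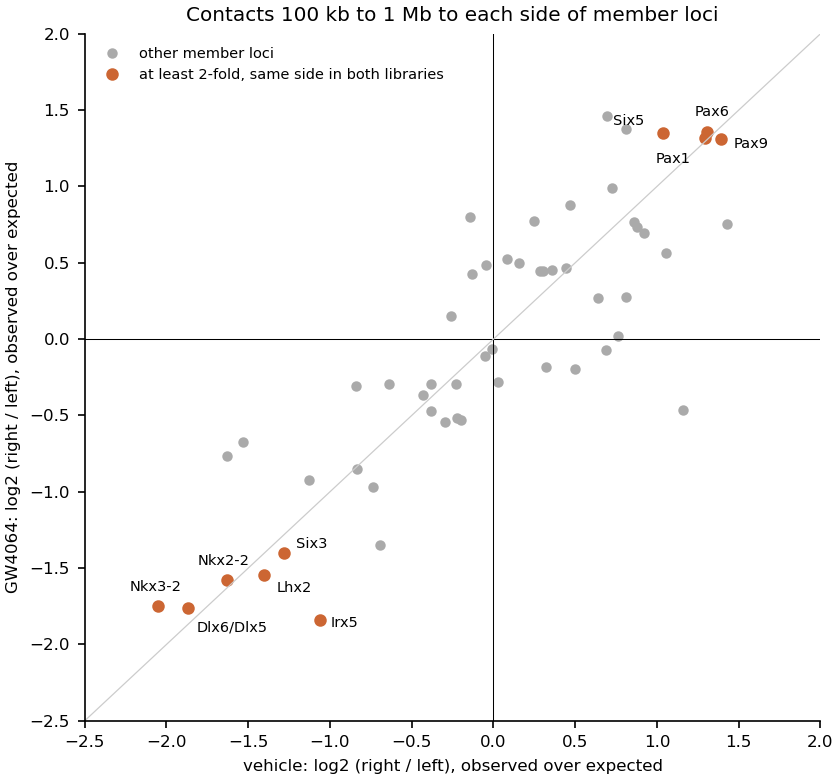
Log2 of observed over expected contacts on the right of 55 of the 56 member loci tested over those on the left, at 100 kb to 1 Mb, in vehicle (horizontal axis) and GW4064 (vertical axis). The 10 loci drawn that were at least 2-fold one-sided in both libraries are orange and named, and all but Irx5 lie close to the diagonal.

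Single bins that stood out in the surroundings were listed next. Bin pairs 100 kb to 2 Mb apart were called enriched at 10 contacts or more and at least 2 times the expected number, with an interval above 1, in both libraries. Of 5678 such pairs with a member bin 47 (0.828%) were enriched, where 0.769 percent of pairs with other gene bins were and 0.810% at like density, so the members' share lay near the background. The 47 fell on 21 loci, and none joined 2 members. This rule and the loci named from it were chosen after the data were seen.

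Six3 had 12 contacts in vehicle and 20 in GW4064 with the bin chr17:85150001-85200000 in Camkmt, 450 kb to its left (observed over expected 6.05 and 7.53). Six2, in the next bin, instead had 10 and 16 contacts with chr17:86050001-86100000 in Srbd1, 400 kb to its right (3.89 and 5.43). Nkx3-2 had 15 and 18 contacts with chr5:41100001-41150000, a bin with no protein-coding gene 650 kb to its left (6.67 and 4.86). These contacts are part of those that set the side of each locus.

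Lhx2 had 14 and 24 contacts with chr2:37900001-37950000 in Dennd1a, 450 kb to its left (4.31 and 6.38), and further bins of that gene were enriched too. Nkx2-2 had 29 and 34 with chr2:146950001-147000000 in Kiz, 200 kb to its left (4.26 and 4.31). Pax9 had 21 and 30 with chr12:56950001-57000000 in Slc25a21, 300 kb to its right (3.86 and 4.00). Lhx9, a factor of the gonad and limb, had 16 and 24 with chr1:139150001-139200000, which overlaps Dennd1b and Crb1, 350 kb to its right (4.40 and 4.96). A bin of 50 kb does not show which element or promoter in it was ligated.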

How the data were processed

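Foxa2 HiChIP was measured in 2 liver libraries, 1 for vehicle and 1 for GW4064, per the labels. HiC-Pro, Bowtie2 2.2.9 and the build mm10 are named in the submitters' processing notes, and no read filter is given in the sources used here. Contact matrices deposited by the authors hold raw counts between 50 kb bins, not normalized, and the deposited bin tables give each bin's number, an index of no other unit.

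Gene spans came from RefSeq's gene table (GRCm38.p6), which unlike its promoter table has no strand, and a locus is every bin that overlaps the gene. Ratios were scaled to equal autosomal totals of the contact class, with exact conditional binomial 95% intervals. Shares have exact Clopper-Pearson intervals and observed over expected values exact Poisson intervals. Expected contacts on a chromosome are the mean at that distance times the coverage of both bins, and between chromosomes the product of both bins' coverage, scaled per pair of chromosomes. With 1 library per group no test was run. PCR duplicates that remain are not independent contacts.

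The members, lists and thresholds were chosen with earlier results of these data known. Named are every linked member, the top 6 and bottom 6 loci by local ratio where both libraries summed to 200 local contacts or more, the 3 highest and 3 lowest by contacts within a bin, and pairs from the 5 highest linked pairs with at least 20 contacts. No far pair had that many, and others are said to be chosen after their values were seen. A few named items are not reported here, though they stay in counts and medians. Of the lists, 15 of 15 hepatocyte, 22 of 22 liver homeobox, 84 of 85 patterning and 39 Hox genes matched. The steps ran in Python 3.11.15 (scipy 1.17.1, numpy 2.4.6, matplotlib 3.10.9, pandas 2.3.3) and were tested on simulated data.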

Additional observations from a re-analysis of the deposited data

How the results depend on the processing

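No paired analysis was possible because each group has 1 library. Of 85 alternative values, 65 stayed within the counting interval of the main value or within 1.5 times of a count, 17 moved and 3 reversed. The median log2 ratio of local contacts over members, -0.14, became 0.00905 when the libraries were scaled to all of their contacts, which moved the median of other loci from -0.15 to 0.00 as well. It was -0.22 from contacts within a bin, -0.21 from all contacts, -0.22 from contacts between chromosomes, -0.0228 after the median of the density class was subtracted, -0.0609 with a neighbour bin added on each side, -0.10 with the GW4064 library thinned to the vehicle total, and -0.18 with 1 locus per linked group. The 13 lower loci became 5 with all contacts as the scale (15.7% of other loci), 5 against the density class (8.69%) and 3 at 1.5-fold (9.30%), and the 0 higher became 4 and 1 under the first 2 of these (8.15% and 9.48%). Linked pairs over 500 kb apart, 1.42 times expected, came to 0.815 without the 2 enriched ones, an alternative chosen after the data were seen. Far pairs on a chromosome in GW4064, 1.43, came to 1.01 from distance alone, and pairs between chromosomes in GW4064, 1.44, to 1.14 when thinned. Linked pairs in GW4064, 0.854 times expected, came to 0.685 from distance alone and reversed to 1.08 with coverage from contacts within a bin; the cause was not tested. With a neighbour bin on each side, contacts between chromosomes in vehicle were 27.8% and contacts within a bin in GW4064 15.5%. The rule on one-sided contacts and its alternatives were chosen after the data were seen. The 11 of 56 loci became 23 of 56 at 1.5-fold and 7 of 42 with 1 locus per linked group. Shares of other loci were not computed under these alternatives, so these counts have no background beside them. Depth limits pairs of loci: between chromosomes 20.0 contacts were expected over 1482 pairs in both libraries, so only sums over pairs could be read. Replicates, and with them any treatment effect, were not analysed here.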
